A study of Mus musculus with 20 samples.

Results

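The genes described here are 8 lysosomal glycosidases, the acid hydrolases that remove sugars one at a time from glycolipids, glycosaminoglycans, glycoprotein glycans and glycogen: Hexa, Gusb, Man2b1, Man2b2, Manba, Glb1, Gaa and Naglu. They were taken by name from the count tables, all 8 were found among the 24513 counted genes, and all 8 passed the filter on low counts that left 16657 genes for testing. Hippocampal polyadenylated RNA was counted in 20 libraries from male mice 9 months old with the strain label C57BL/6J. There were 5 libraries in each of 4 genotypes, labelled WT (neither change), C3aR KO, PS19, and PS19/C3aR KO (both). PS19 mice carry a human tau transgene with a dementia-linked mutation, under the control of the mouse prion protein promoter. C3aR, the product of C3ar1, is the receptor for the complement fragment C3a, and the groups labelled C3aR KO and PS19/C3aR KO are labelled as lacking it. Not given in the sources used here is how C3ar1 was altered, or whether each library came from its own animal. The p-values therefore speak only of variation among these libraries, some of which may be technical.

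Lysosomal glycosidases are made in the endoplasmic reticulum, tagged with mannose 6-phosphate or carried by other sorting receptors, and delivered to lysosomes, where they work in sequence from the outer end of a sugar chain. Loss of a single enzyme in humans causes a storage disease, and several of these diseases damage the brain. All cell types of the brain have lysosomes. Microglia, the phagocytes of the brain, hold many, and many lysosomal genes share promoter sites for TFEB, a transcription factor that raises lysosomal gene expression.

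Depth was similar among the groups, with 33885850 to 47828111 gene counts per library, and levels are given as CPM, counts scaled so that the gene counts of a library sum to 1000000. Prnp, whose promoter drives the tau transgene, was higher in PS19 than WT by 1.09 on the log2 scale (SE 0.04). C3ar1 went against its label: it was 2.03 ± 0.266 CPM in WT and 15.97 ± 1.57 CPM in the libraries labelled C3aR KO (mean ± SD, n = 5), and it rose in the latter by 2.94 (adjusted p = 9.51e-08). C3ar1 also rose from WT to PS19, by 2.31, and from PS19 to PS19/C3aR KO it differed by 0.72 and was not called. How C3ar1 was altered is not given, so this count cannot decide whether the label is right. The cause of the rises was not tested. Every direction below that involves C3aR KO is of libraries labelled so. Rn45s, the ribosomal RNA precursor, took 2.85 to 4.48% of gene counts in WT libraries. Its range was 0.873 to 3.65% for PS19, 1.04 to 3.03% for PS19/C3aR KO and 0.923 to 4.34% for C3aR KO. The labels give no batch or date.

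The promoter windows in the RefSeq table for GRCm38.p6 run from 250 bases before to 50 bases after a gene's start, and all 8 genes matched by symbol. The palindrome CACGTG, the core that TFEB recognises and a general E-box of other factors, was searched for; being its own reverse complement, it covers both strands. It occurred in 3 of 8 windows, those of Glb1, Gaa and Naglu, against 8.09% of 27025 genes with a window. The 30 bases around each match are printed because these are the sites at which the 8 genes differ in this motif; capitals mark CACGTG.
Glb1 (chr9:114401018-114401047, plus strand): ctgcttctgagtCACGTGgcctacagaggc
Gaa (chr11:119267811-119267840, plus strand): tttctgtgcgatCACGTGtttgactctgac
Naglu (chr11:101070009-101070038, plus strand): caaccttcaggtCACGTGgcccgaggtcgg
The first base of the motif lay 48 bases before the RefSeq start in Glb1, 140 in Gaa and 73 in Naglu. Gene coordinates given below are from GENCODE vM21, whose starts differ from these. The GENCODE start of Naglu, chr11:101070012, lies before its motif, so by that annotation the motif is within the gene. In Glb1 and Gaa the motif lies before either start. In Glb1 and Naglu it was part of GTCACGTG, searched on both strands and overlapping the shorter motif, which 2.55% of genes had. The windows of Hexa, Gusb, Man2b1, Man2b2 and Manba held no CACGTG. A shorter and a longer palindrome that extend this core at both ends were also searched for. Neither occurred in any of the 8 windows. Of genes with a window, 1.12% had the shorter of these palindromes and 0.370% the longer. A match is a description of letters, and no binding was measured.

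In PS19 hippocampus 6 of the 8 glycosidase transcripts rose above WT: Man2b1, Gusb, Hexa, Naglu, Man2b2 and Glb1, by 1.22- to 1.83-fold. Manba and Gaa did not pass the test. None of the 8 fell. The 6 also had all 5 PS19 libraries above all 5 WT libraries, as did 8.11% of all genes. In the same fit 7.5% of all genes tested were called higher and 10.8% in either direction (edgeR quasi-likelihood test, Benjamini-Hochberg adjusted p below 0.05 over all 16657 genes). The median log2 fold change of the 8 was 0.57, against -0.0068 for all genes tested. DESeq2 and limma-voom also called 6, with 13.7% and 10.6% of all genes. In bulk tissue, more RNA per cell and more cells of a type that expresses a gene cannot be told apart. Fold changes are from counts scaled by TMM, while CPM are on plain library totals.

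**Figure D1:**
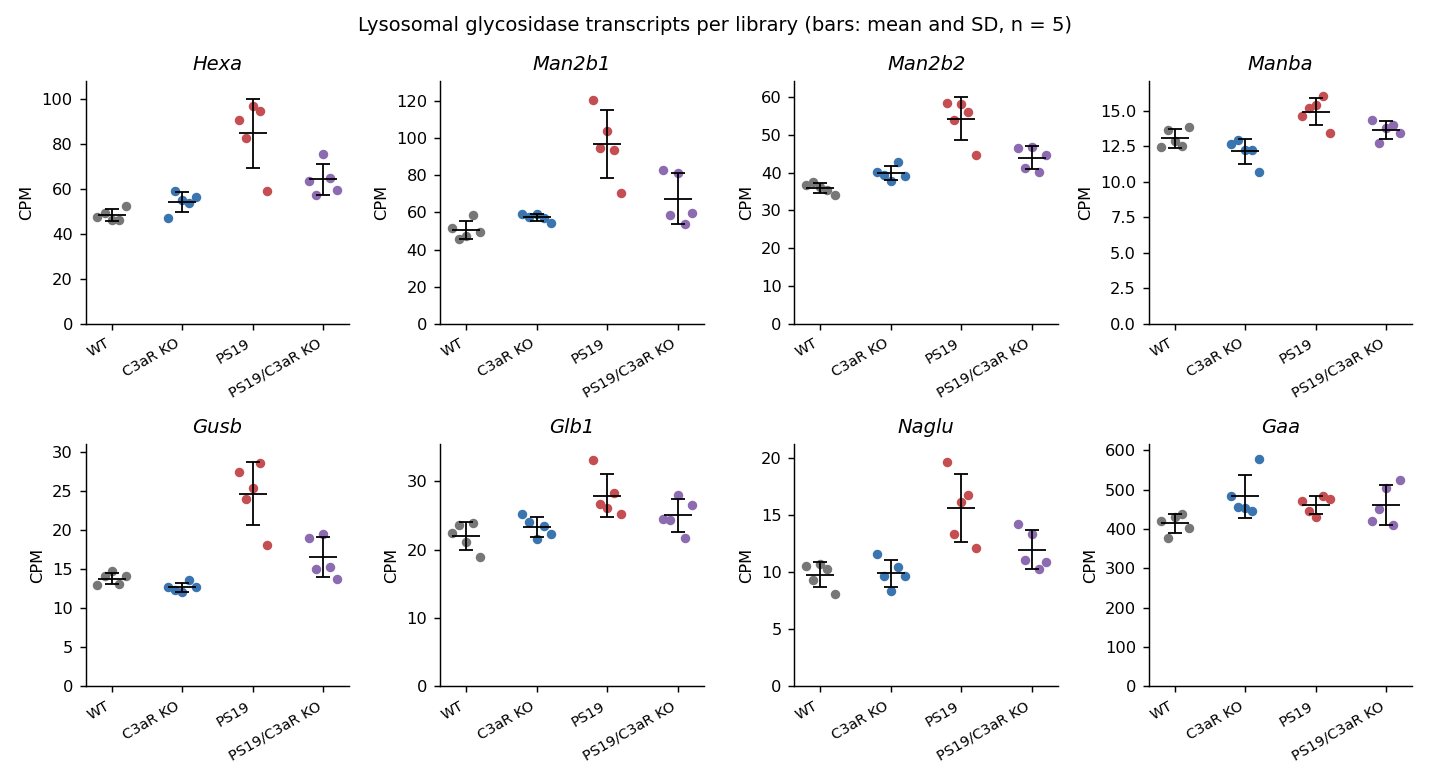
Transcript level of each glycosidase in every library, as CPM on a linear axis from 0, with 1 point per library (libraries 1 to 5 from left to right in each group) and bars for the mean and SD of 5. The 5 PS19 libraries lie above all 5 WT libraries for Hexa, Man2b1, Man2b2, Gusb, Glb1 and Naglu, and overlap WT for Manba and Gaa.

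Hexa encodes the alpha subunit of beta-hexosaminidase A, which cleaves ganglioside GM2 with the help of the GM2 activator protein; its loss causes Tay-Sachs disease. The gene (ENSMUSG00000025232.8) lies at chr9:59539540-59565109 on the plus strand, in GENCODE vM21 on GRCm38, and 12.8% of its exonic bases overlap exons of Tmem202 on the other strand. Its level was 47.4, 49.3, 46.1, 46.2 and 52.4 CPM in WT libraries 1 to 5 and 90.9, 82.6, 96.7, 94.6 and 58.9 CPM in PS19 libraries 1 to 5. All PS19 libraries were above all WT libraries, and PS19 library 5 was the closest to them. Libraries labelled C3aR KO had 46.9, 59.02, 55.04, 53.95 and 56.3 CPM, and those labelled PS19/C3aR KO had 63.8, 57.5, 75.5, 65.1 and 59.5 CPM. The latter all exceeded every WT library but lay below 4 of the 5 PS19 libraries. From WT to PS19 Hexa rose by 0.75 on the log2 scale (SE 0.09, 1.68-fold, adjusted p = 0.000163).

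Of the 3 mannosidases Man2b1 and Man2b2 rose from WT to PS19 and Manba did not pass the test. Man2b1 is the major lysosomal alpha-mannosidase, lost in alpha-mannosidosis (ENSMUSG00000005142.10, chr8:85083270-85098282 on the plus strand). It stood at 51.4, 45.8, 47.5, 58.5 and 49.5 CPM in WT and 121, 94.8, 104, 93.9 and 70.3 CPM in PS19. The lowest PS19 library was again library 5, and it still exceeded the highest WT library. Man2b1 rose by 0.87 (SE 0.12, 1.83-fold, adjusted p = 0.000284). Man2b1 in the libraries labelled C3aR KO was 59.1, 57.5, 59.3, 57.04 and 54.5 CPM, a narrow range, and in those labelled PS19/C3aR KO 83.04, 58.7, 81.5, 53.8 and 59.9 CPM. The PS19/C3aR KO libraries fell into a higher pair, libraries 1 and 3, and a trio between 53.8 and 59.9 CPM. Of the trio library 4 lay within the WT range, and libraries 2 and 5 lay just above the highest WT library, at 58.5 CPM.

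Man2b2, an alpha-mannosidase that acts on the core of trimmed glycans (ENSMUSG00000029119.9, chr5:36806921-36830653 on the minus strand), had the lowest p of the 8, rank 7 among all 16657 genes. Its WT values were 36.7, 37.4, 36.3, 35.5 and 34.02 CPM and its PS19 values 58.5, 53.8, 58.1, 56.1 and 44.7 CPM, with no overlap. The rise was 0.53 (SE 0.06, 1.44-fold, adjusted p = 9.13e-05). The C3aR KO values of Man2b2 were 40.1, 39.3, 37.9, 42.8 and 39.2 CPM, each above the highest WT value of 37.4, and the PS19/C3aR KO values were 46.5, 41.3, 46.9, 40.2 and 44.8 CPM. Manba, the beta-mannosidase that removes the last mannose of the chain (ENSMUSG00000028164.15, chr3:135485611-135571404 on the plus strand), had 12.4, 13.7, 12.9, 12.5 and 13.9 CPM in WT and 14.6, 15.2, 15.4, 15.9999 and 13.4 CPM in PS19. PS19 library 5 lay within the WT range and the other 4 above it. The difference of 0.13 (SE 0.06, 95% interval 0.02 to 0.25) had an adjusted p of 0.161 and was not called. The C3aR KO libraries had 12.6, 12.9, 12.2, 12.2 and 10.7 CPM and the PS19/C3aR KO libraries 14.3, 12.7, 13.8, 13.97 and 13.4 CPM of Manba.

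Gusb and Naglu, which both take part in glycosaminoglycan breakdown, rose. Gusb is beta-glucuronidase, which removes glucuronic acid and is lost in Sly syndrome (ENSMUSG00000025534.17, chr5:129989011-130003049 on the minus strand). It had 12.9, 14.1, 14.7, 13.1 and 14.2 CPM in WT, 12.7, 12.3, 12.1, 13.6 and 12.7 CPM in C3aR KO, 27.4, 23.97, 25.3, 28.5 and 18.1 CPM in PS19 and 19.03, 15.1, 19.6, 15.3 and 13.8 CPM in PS19/C3aR KO. All PS19 libraries exceeded all WT libraries, the C3aR KO mean was the lowest of the 4 groups, and 2 of the PS19/C3aR KO libraries exceeded PS19 library 5. Gusb rose from WT to PS19 by 0.77 (SE 0.10, 1.71-fold, adjusted p = 0.000180). Naglu is the N-acetyl-alpha-glucosaminidase of heparan sulfate breakdown, lost in a form of Sanfilippo syndrome (ENSMUSG00000001751.9, chr11:101070012-101077672 on the plus strand). Its values were 10.6, 9.33, 10.7, 10.3 and 8.07 CPM in WT, 11.5, 9.62, 8.33, 10.4 and 9.64 CPM in C3aR KO, 19.6, 13.4, 16.1, 16.7 and 12.1 CPM in PS19 and 14.2, 11.1, 13.3, 10.2 and 10.9 CPM in PS19/C3aR KO. PS19 library 1 was the highest and libraries 2 and 5 were the lowest of PS19, still above WT. Naglu rose by 0.61 (SE 0.13, 1.53-fold, adjusted p = 0.00412).

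Glb1, the beta-galactosidase that cleaves ganglioside GM1 and keratan sulfate and whose activity is used as a stain for senescent cells (ENSMUSG00000045594.10, chr9:114401076-114474898 on the plus strand), changed less. It shares 5.49% of its exonic bases with Tmppe on the same strand. It had 22.5, 23.6, 21.1, 23.9 and 18.9 CPM in WT, 25.2, 24.1, 21.6, 23.5 and 22.3 CPM in C3aR KO, 33.1, 26.7, 26.2, 28.3 and 25.2 CPM in PS19 and 24.5, 24.3, 28.04, 21.8 and 26.6 CPM in PS19/C3aR KO. PS19 and WT did not overlap, and PS19 library 1 stood highest. Glb1 rose by 0.28 (SE 0.08, adjusted p = 0.0312). The adjusted p of Glb1 rose above 0.05 when WT library 3 (0.0654), WT library 5 (0.0781), PS19 library 1 (0.0995) or PS19 library 4 (0.0652) was left out, and when the model held the Rn45s share (0.0843); the log2 fold change was then 0.22 to 0.33.

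Gaa, the acid alpha-glucosidase that degrades glycogen and is lost in Pompe disease (ENSMUSG00000025579.14, chr11:119267887-119285454 on the plus strand), had the most counts of the 8 in every library, before any scaling for length. It stood at 420.2, 377, 431, 437 and 403 CPM in WT and 472, 444, 431, 483 and 477 CPM in PS19, where the lowest PS19 value lay within the WT range. The difference was 0.10 (SE 0.08, 95% interval -0.07 to 0.26, adjusted p = 0.532). In C3aR KO Gaa was at 483, 455, 454, 446 and 577 CPM, where library 5 stood apart above the other 4, and in PS19/C3aR KO at 421, 451, 503, 409 and 524 CPM. The genes with a CACGTG match in the window included Gaa, which was not called, and Glb1 and Naglu, which were. Among those without a match, Hexa, Gusb, Man2b1 and Man2b2 were called and Manba was not.

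**Figure D2:**
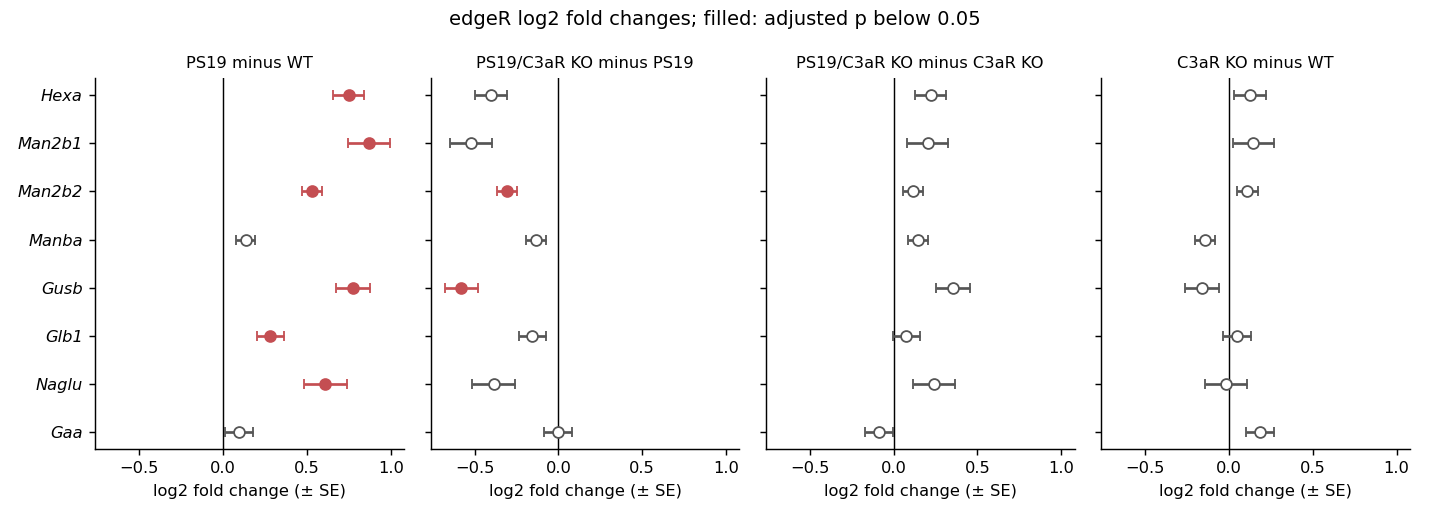
edgeR log2 fold change of each glycosidase in 4 comparisons, with bars of 1 SE on a shared axis; filled points passed adjusted p below 0.05. From PS19 minus WT 6 of 8 points are filled, all above 0, and from PS19/C3aR KO minus PS19 the points of Gusb and Man2b2 are filled, both below 0.

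In the hippocampus labelled PS19/C3aR KO, Gusb and Man2b2 were lower than in PS19, and the other 6 glycosidases did not pass the test. Gusb fell by 0.58 on the log2 scale (SE 0.10, adjusted p = 0.0275) and Man2b2 fell by 0.31 (SE 0.06, adjusted p = 0.0375). Of all genes tested, 0.252% were called in either direction and 0.18% lower. Hexa differed by -0.40 (SE 0.09, adjusted p = 0.0701) and Man2b1 by -0.52 (SE 0.12, adjusted p = 0.0704), both short of the threshold. Naglu differed by -0.39 (SE 0.13, adjusted p = 0.161), Glb1 by -0.16 (adjusted p = 0.389), Manba by -0.13 (adjusted p = 0.294) and Gaa by -0.0030 (adjusted p = 0.992). The median of the 8 was -0.35, against -0.0041 over all genes tested, and 8 of 8 values were below 0; the sign of Gaa flipped with plain library totals, at 5.90e-05. This comparison shares its PS19 libraries with PS19 minus WT, so the pair of comparisons is not independent. No glycosidase had all 5 PS19/C3aR KO libraries below all 5 PS19 libraries, a pattern 1.01% of all genes had.

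How many of the 8 passed here turned on single libraries and on the fit. The count of 2 became 0 without PS19 library 1, PS19 library 3, PS19/C3aR KO library 2, 4 or 5, when the model held the Rn45s share (0.054% of all genes called), or when only these 2 genotypes were fitted (0.0614%). It was 1 without PS19 library 2, PS19 library 4 or PS19/C3aR KO library 3, and 1 on plain library totals. It was 4 without PS19 library 5 (2.87% of all genes) and 4 by DESeq2 (2.66%), which in each case added Hexa and Man2b1, and 2 by limma-voom (0.534%). Across the 20 alternatives Gusb lay between -0.66 and -0.52 and Man2b2 between -0.36 and -0.27.

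PS19/C3aR KO libraries were compared with WT by description only. All 5 exceeded all 5 WT libraries for 2 of 8 genes, Hexa and Man2b2, while 4.36% of all genes tested had that pattern. For the 7 glycosidases without Gaa, the summed level was 189 to 199.9 CPM in WT, 205 to 215 CPM in C3aR KO, 243 to 365 CPM in PS19 and 220 to 279 CPM in PS19/C3aR KO. PS19 library 5, at 243 CPM, lay within the PS19/C3aR KO range, and the other 4 PS19 libraries lay above it.

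Neither comparison against C3aR KO gave a call. From WT to C3aR KO 0 of 8 passed by edgeR, with 2 at an unadjusted p under 0.05 (Manba and Gaa; 6% of all genes), 0 by DESeq2 and 0 by limma-voom. Of all genes, edgeR called 0.06%, DESeq2 0.348% and limma-voom 0.072%. The log2 differences ran from -0.16 for Gusb to 0.18 for Gaa (95% interval 0.02 to 0.35). All 5 libraries labelled C3aR KO exceeded all 5 WT libraries for Gaa and for Man2b2, a pattern 1.03% of all genes had. From C3aR KO to PS19/C3aR KO 0 of 8 passed by edgeR, with 3 at an unadjusted p under 0.05 (Gusb, Manba and Hexa; 9.71% of all genes), 0 by DESeq2 and 0 by limma-voom. Of all genes, edgeR and limma-voom each called 0.006% and DESeq2 0.949%. Gusb had the largest difference there, 0.35 (SE 0.10, 95% interval 0.16 to 0.55, adjusted p = 0.201), with all 5 libraries above all 5 (1.54% of all genes). Hexa differed by 0.22 (95% interval 0.03 to 0.40) and Man2b1 by 0.20 (95% interval -0.04 to 0.44).

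The interaction asks whether the PS19 difference itself differed between libraries labelled C3aR KO and the rest. The PS19 difference was 0.75 for Hexa without the C3aR KO label and 0.22 with it, 0.87 and 0.20 for Man2b1, and 0.53 and 0.11 for Man2b2. The interaction was -0.53 for Hexa (SE 0.13, adjusted p = 0.9995), -0.67 for Man2b1 (SE 0.17, adjusted p = 0.9995) and -0.42 for Man2b2 (SE 0.09, adjusted p = 0.578). By p they ranked 11, 14 and 3 among 16657 genes. None of the 8 was called by edgeR (0.012% of all genes were), with 4 at an unadjusted p under 0.05 (4.15% of all genes). DESeq2 called 1 (Man2b2, adjusted p = 0.0185) and 0.018% of all genes, and limma-voom called 0 and 0.006%. Without PS19 library 5 edgeR called 0.0298% of all genes, among them Hexa (-0.63, adjusted p = 0.00948) and Man2b2 (-0.47, adjusted p = 0.0153).

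**Figure D3:**
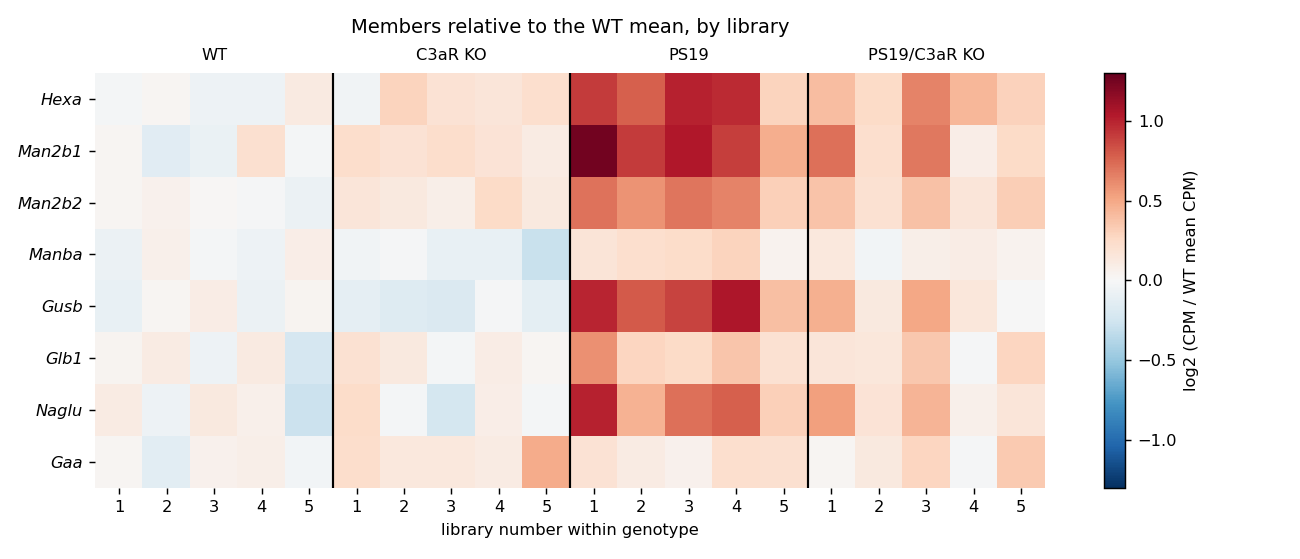
Each glycosidase (rows) in each of the 20 libraries (columns, grouped by genotype and numbered as in the sample titles), coloured by log2 of its CPM over the mean WT CPM. For Hexa, Man2b1 and Gusb each of PS19 libraries 1 to 4 is above every other library, PS19 library 5 is paler than these 4 for all genes but Gaa, and over the 20 libraries Manba runs from -0.29 to 0.29 and Gaa from -0.13 to 0.48, the last in C3aR KO library 5.

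In both transgenic groups 1 library was the lowest for most of the glycosidases. PS19 library 5 was the lowest of its group for 7 of 8 genes, with Gaa, lowest in library 3, as the exception, and PS19 library 1 was the highest for 4. PS19/C3aR KO library 4 was the lowest of its group for 5 genes, and library 3 the highest for 4. In the other groups WT library 5 was the lowest for 3 genes and the highest for 2, and C3aR KO library 3 the lowest for 4 and the highest for 1. The 4 of C3aR KO library 3 is close to the 5 of PS19/C3aR KO library 4. The median over the 8 genes of log2 CPM over the WT mean was 0.81, 0.52, 0.71, 0.71 and 0.30 in PS19 libraries 1 to 5. In PS19/C3aR KO libraries 1 to 5 it was 0.39, 0.16, 0.41, 0.09 and 0.26. In every PS19 library 8 of 8 genes were above the WT mean, as were 6 to 8 of 8 in PS19/C3aR KO and 4 to 6 of 8 in C3aR KO. The 8 genes share these libraries, so their order is 1 observation per library.

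Glial marker sums also differed among these libraries, in an order that was not the same for each cell type. Among all genes tested 7.5% were called higher from WT to PS19 and 10.8% in either direction. The 18 microglial markers summed to 423 to 442 CPM in WT, 422 to 489 CPM in C3aR KO, 600 to 1333 CPM in PS19 and 503 to 932 CPM in PS19/C3aR KO, and 18 of 18 rose from WT to PS19 (median 1.18). By library the sum was 1221, 1135, 1333, 1327 and 600.0 CPM in PS19 and 865, 560.0, 932, 597 and 503 CPM in PS19/C3aR KO, so PS19 library 5 and PS19/C3aR KO libraries 2, 4 and 5 were low in their groups. The 11 astrocyte markers summed to 6015 to 6392 CPM in WT, 6173 to 7067 CPM in C3aR KO, 7205 to 11499 CPM in PS19 and 7052 to 8843 CPM in PS19/C3aR KO, and 9 of 11 rose from WT to PS19. The 9 oligodendrocyte markers summed to 3522 to 5195 CPM in WT, 2914 to 5017 CPM in C3aR KO, 5695 to 6693 CPM in PS19 and 4169 to 5937 CPM in PS19/C3aR KO, and 3 of 9 rose from WT to PS19. The oligodendrocyte sum of PS19 was lowest in library 5, at 5695 CPM, the library lowest for most of the glycosidases. In PS19/C3aR KO most glycosidases were lowest in library 4. There the oligodendrocyte sum was highest in library 4, at 5937 CPM, and was 4424 CPM in library 3, while the microglial sum was lowest in library 5, at 503 CPM. From PS19 to PS19/C3aR KO the median log2 difference was -0.62 for the microglial, -0.20 for the astrocyte and -0.29 for the oligodendrocyte markers. Of these markers edgeR called 0 of 18, 0 of 11 and 0 of 9 in that comparison, and 0.252% of all genes tested. At an unadjusted p under 0.05 there were 16 of 18, 8 of 11 and 5 of 9, against 14.5% of all genes tested. The 10 neuronal markers summed to 9711 to 11955 CPM over all libraries, and 2 of 10 fell from WT to PS19. The 7 choroid plexus markers ranged from 23.9 to 4579.9 CPM over all libraries, wide in every group, and 4 hemoglobin markers were at 0 in all 20 libraries. The part of these cell markers in the glycosidase differences was not tested. With the Rn45s share in the model, the PS19 minus WT difference was 0.59 for Hexa, 0.72 for Gusb, 0.83 for Man2b1, 0.52 for Man2b2 and 0.67 for Naglu, each still called, while 2.59% of all genes were.

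The other enzymes and helpers of the same pathways were followed as fixed lists. For scale, edgeR called 7.5% of all genes tested higher from WT to PS19 and 10.8% in either direction. The first list, called other glycosidases here, holds 16 genes, among them 2 that are not glycosidases by activity, the amidase Aga and the chitinase-like Chil1. Of these 15 were tested (Chit1 had at most 17 counts in a library), and 6, Chil1 included, rose from WT to PS19, with a median log2 fold change of 0.19 over the 15. Chil1 and Fuca2 were among the 4 with the lowest p. Chil1, a secreted member of the glycoside hydrolase family that lacks enzyme activity, rose by 1.27 (adjusted p = 0.00191). The fucosidase Fuca2 rose by 0.23 (adjusted p = 0.00222). When the model held the Rn45s share, 2 of the 15 were called, against 2.59% of all genes.

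Activators and partner proteins had 3 of 4 called higher (median 0.33), against 7.5% of all genes tested. Ctsa, the protective protein that stabilises beta-galactosidase and the sialidase Neu1, rose by 0.55 (adjusted p = 0.000934). Gm2a, the GM2 activator that presents the ganglioside to beta-hexosaminidase A, rose by 0.35 (adjusted p = 0.00601). Scarb2, the sorting receptor of glucocerebrosidase, rose by 0.30 (adjusted p = 0.00265). Psap, the precursor of the saposins, differed by 0.10 and was not called. Among 8 sulfatases and related enzymes of glycosaminoglycan breakdown 1 was called higher, and the median was 0.11; 2 were called without PS19 library 5.

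Of 9 genes that sort lysosomal enzymes, the mannose 6-phosphate pathway among them, 0 were called by edgeR, with 3 at an unadjusted p under 0.05 (24.8% of all genes), 1 by DESeq2, 0 by limma-voom and 1 by edgeR without PS19 library 5; the median was 0.0012. Of 4 tested regulators (Tfec had at most 3 counts in a library) 1 was called: Tfeb, at 8.76 ± 0.867 CPM in WT and 14.4 ± 2.69 CPM in PS19, rose by 0.66 (adjusted p = 0.00429). Of 16 non-lysosomal glycosidases of the secretory pathway and cytosol 1 was called, Edem1, which marks misfolded glycoproteins for disposal, at 0.34 (adjusted p = 0.00132), with a median of 0.02; 2 were called without WT library 1 and 2 without PS19 library 5. Beside these WT to PS19 calls, edgeR called 10.8% of all genes tested in either direction. From PS19 to PS19/C3aR KO edgeR called 0 genes of these 6 lists. At an unadjusted p under 0.05 there were 4 of 15 other glycosidases, 3 of 4 activators, 2 of 8 sulfatases and related enzymes, 1 of 9 sorting genes, 2 of 4 regulators and 3 of 16 non-lysosomal enzymes, against 14.5% of all genes. DESeq2 called 1 gene in each of 4 lists (the other glycosidases, activators, sulfatases and non-lysosomal enzymes) and 0 in the sorting and regulator lists, and limma-voom called 0 in all 6. Without PS19 library 5 edgeR called 1 gene in each of the same 4 lists, and without PS19/C3aR KO library 1 it called 1 other glycosidase and 1 non-lysosomal enzyme.

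**Figure D4:**
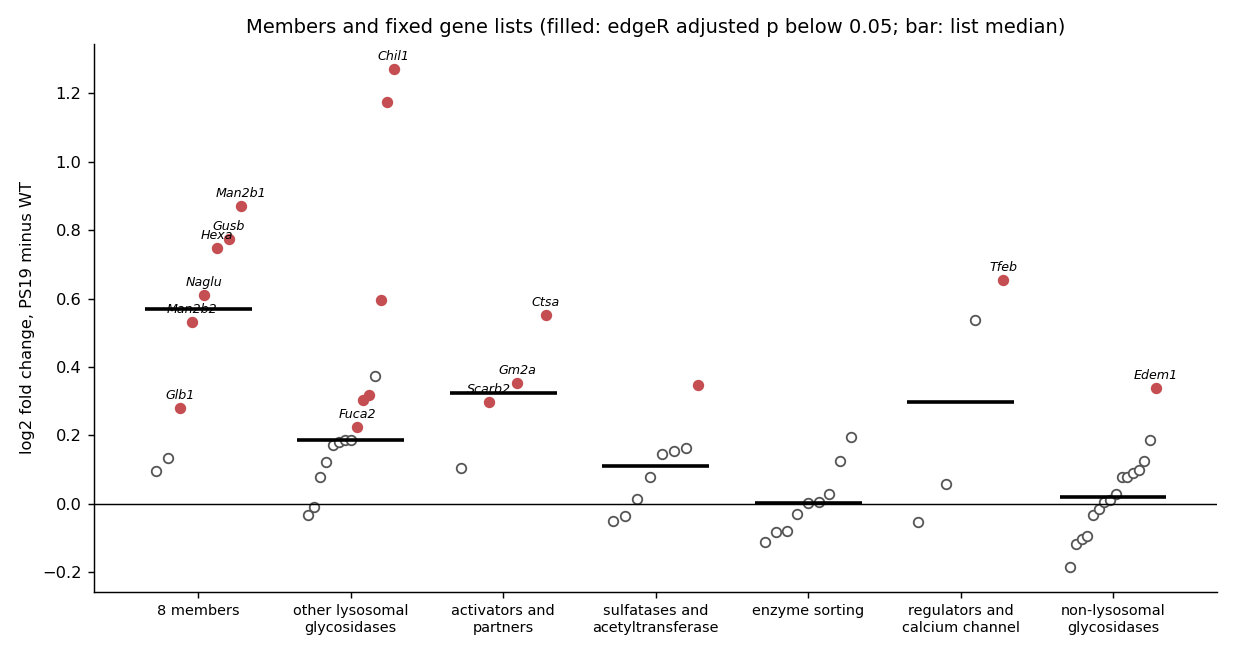
edgeR log2 fold change from WT to PS19 of the 8 glycosidases and of the tested genes in 6 related lists, ordered by size within a list; filled points passed adjusted p below 0.05 and bars are list medians, with names for genes described in the text. Filled points number 6 of 8 among the 8 glycosidases, 6 of 15 in the list of other glycosidases and 0 of 9 among the sorting genes.

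Ratios of counts between the mannosidases need no library scaling. They were chosen after the single genes' values had been seen and are a description, with no test. The Man2b1 to Manba ratio was 5.23 to 8.27 in PS19, above the 3.35 to 4.68 of WT and overlapping the 3.85 to 5.91 of PS19/C3aR KO; for C3aR KO it was 4.44 to 5.10. The Man2b1 to Man2b2 ratio was 1.22 to 1.65 in WT and 1.57 to 2.07 in PS19, with overlap.

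**Figure D5:**
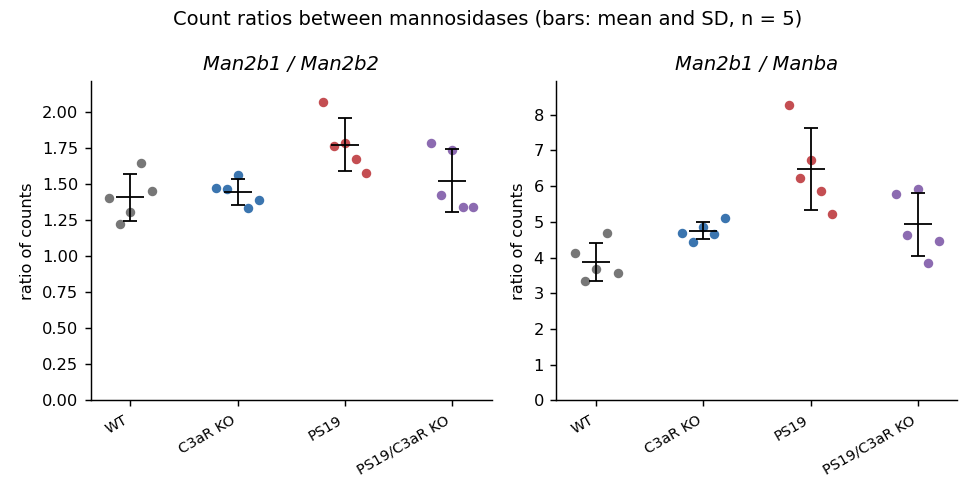
Ratio of counts per library for 2 mannosidase pairs on linear axes from 0, with 1 point per library and bars for the mean and SD of 5. The Man2b1 to Manba ratio averages 3.89 in WT and 6.47 in PS19, and the Man2b1 to Man2b2 ratio 1.41 and 1.77.

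Levels of different genes were compared as CPM per kb of merged exons. In WT the order was Gaa (86.5 ± 5.08, mean ± SD, n = 5), Hexa (24.2 ± 1.32), Man2b2 (10.2 ± 0.365), Glb1 (7.31 ± 0.678), Man2b1 (6.30 ± 0.615), Naglu (3.68 ± 0.412), Gusb (3.04 ± 0.167) and Manba (1.87 ± 0.0954). The ranges over libraries overlapped for Glb1 and Man2b1 and for Naglu and Gusb, and those neighbours did not differ beyond their spread. The order was the same in C3aR KO, with overlap of Glb1 and Man2b1. In PS19 and in PS19/C3aR KO Man2b1 stood above Glb1, with overlapping ranges: 12.1 and 9.27 in PS19, and 8.40 and 8.33 in PS19/C3aR KO. In PS19 the ranges of Man2b2 and Man2b1 overlapped too, as did those of Naglu and Gusb in both transgenic groups. Merged exons are long for Man2b1 (8026 bases, against 3822 in the longest coding transcript) and Gusb (4548 against 2687); by the longest coding transcript, a length chosen after these values were seen, Man2b1 had rank 3 and Gusb rank 6 in all 4 groups. Gaa stood first and Hexa second by either length.

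Genes with the pattern most like each risen glycosidase were found by the root mean square difference of log2 CPM, each gene centred on its own mean, over the 20 libraries and 12747 genes. The likeness is a description, since all genes share the libraries and their cell makeup. For Hexa these were Abhd4 (0.103), Clu (0.107) and Tsc22d4 (0.107), and for Gusb Tmem176b (0.117), Apoe (0.118) and Prdx6 (0.120). For Man2b1 they were Clu (0.132), Lpcat2 (0.143) and Casp8 (0.144). Man2b2 was most like Cd81 (0.067) and Cpne3 (0.081), and Msi2 (0.094) and Ginm1 (0.101) were among the 3 nearest to Glb1. Naglu was nearest to Ctsl (0.111), Ctsa (0.124) and Apoe (0.125). The root mean square of a member's own centred values ran from 0.158 for Glb1 to 0.378 for Gusb. A member that varies little gives smaller differences, so their sizes are not compared between members. No other of the 6 risen glycosidases was among the 3 nearest of any: the closest rank was 17, Naglu for Man2b1.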

How the data were processed

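Per the labels' protocols, paired 76-nt reads from an Illumina HiSeq were aligned with TopHat 2.0.9 to mm10, and htseq-count tallied them over the merged exons of each gene. The deposited values are these whole-number counts for 24513 genes per library; DESeq2 is named without a role, per the submitters' processing notes. Not given in the sources used here is the strand setting or the annotation release, so genes overlapping on opposite strands cannot be separated. The 5 summary lines per file were left out of totals; pairs on no annotated exon were 17.4 to 25.4% of uniquely aligned pairs.

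Groups came from the sample titles. 1 edgeR 4.0.16 quasi-likelihood fit (R 4.3.3, TMM, filterByExpr with minimum count 10 and minimum total 15) to all 20 libraries with genotype as the only factor gave every comparison; a gene was called at a Benjamini-Hochberg adjusted p below 0.05. Standard errors are log2 fold changes divided by the root of the F statistic. Alternatives were other size factors and filters, DESeq2 1.42.0, limma-voom 3.58.1, covariates, a replicate block and leaving out each library. The fits were tested on simulated data. Within each group every pair of libraries differed beyond sampling noise (chi-square per degree of freedom 9.00 to 109), so none was counted as a duplicate.

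The members, gene lists and tests were chosen with earlier results of these data known. Named genes were all 8 members, up to 4 called genes with the lowest p per list, C3ar1, Mapt and Prnp as label checks, and the 3 genes most like each called member (mean log2 CPM of at least 1, predicted genes left out). Some genes this rule names are not reported here. Mapt, the mouse tau gene, was higher in PS19 than WT by 0.23 on the log2 scale.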

Additional observations from a re-analysis of the deposited data

Results flagged for a closer look

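Gaa in C3aR KO library 5, at 577 CPM, stood apart from the other 4 libraries of its group, which had 446 to 483 CPM. Its gap to the nearest library was 0.713 of the group's whole range, just above the 95% critical value of 0.71 for 5 samples. In all, 32 groups of 5 libraries (8 genes in 4 genotypes) were examined this way, and chance picks out about 1 in 20.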

How the results depend on the processing

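The 8 members' log2 fold changes were recomputed under 20 alternatives for each comparison and 29 for the interaction. PS19 minus WT kept direction and side of the threshold in 155 of 160 values; the other 5 are Glb1. PS19/C3aR KO minus C3aR KO kept both in 160 of 160, C3aR KO minus WT in 151, PS19/C3aR KO minus PS19 in 127 (18 lost and 7 gained a call, 8 turned sign) and the interaction in 222 of 232. Hexa in C3aR KO minus WT turned from 0.13 to -0.016 with the Rn45s share as a covariate. Naglu there was 0.020, 0.031, 0.00306, 0.021, 0.025, 0.00580, 0.00554 and 0.046 with, in order, plain library totals, the Rn45s covariate, a choroid plexus covariate, and without WT library 1, 3 or 4 or C3aR KO library 2 or 3. Gaa in PS19/C3aR KO minus PS19 was 5.90e-05, 0.00850, 0.00357, 0.016, 0.016, 0.022, 0.029 and 0.045 with plain totals, a stricter filter, only the 2 groups compared, the choroid covariate, and without PS19 library 4 or 5 or PS19/C3aR KO library 1 or 4. Manba in the interaction was -0.024, -0.019, -0.016, -0.037, -0.00593, -0.017 and -0.00798 with plain totals, the Rn45s covariate, and without WT library 5, C3aR KO library 5, PS19 library 1 or 5 or PS19/C3aR KO library 1. Leaving out 1 library, Naglu in C3aR KO minus WT ranged from -0.090 to 0.046, Gaa in PS19/C3aR KO minus PS19 from -0.058 to 0.045 and Manba in the interaction from -0.037 to 0.036. The cause was not tested.

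From PS19 to PS19/C3aR KO the members called were 2, against 1 with plain library totals, 4 with DESeq2, 0 with only the 2 groups compared, 0 with the Rn45s covariate and 0 to 4 leaving out 1 library. In the interaction they were 0, against 1 with DESeq2 and 0 to 2 leaving out 1 library. In PS19 minus WT the other glycosidases called went from 6 to 2 with the Rn45s covariate. Sulfatases and related enzymes went from 1 to 3 with plain totals, 2 with DESeq2, 3 with only the 2 groups compared, 2 with the choroid covariate and 1 to 2 leaving out 1 library. Sorting genes went from 0 to 2 with plain totals, 1 with DESeq2 and 0 to 1 leaving out 1 library. Regulators went from 1 to 2 with only the 2 groups compared, the choroid covariate or the replicate block. Non-lysosomal glycosidases went from 1 to 2 with plain totals, DESeq2, only the 2 groups compared, the choroid covariate or the replicate block, and were 1 to 2 leaving out 1 library. In PS19/C3aR KO minus PS19 DESeq2 called 1 gene instead of 0 in the other glycosidases, activators, sulfatases and non-lysosomal lists, and leaving out 1 library gave 0 to 1 in each of these.

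Nothing in the labels pairs libraries by replicate number, and not every same-numbered pair deviated together, so the numbers were not treated as a pairing: of 30 same-numbered pairs 16 had a correlation of deviations over 0.1 (-0.27 to 0.55, median 0.14, against -0.042 for other pairs), and a library's best match in another group had its number in 18 of 60 cases, each with 5 candidates. A pairing is not shown to be absent. With the replicate block the members called were 6 in PS19 minus WT (12.6% of all genes), 3 in PS19/C3aR KO minus PS19 (Man2b1 added; 1.27% of all genes, against 0.252% without the block) and 0 in the other comparisons and the interaction. In PS19/C3aR KO minus PS19 the block gave 1 other glycosidase and 1 non-lysosomal enzyme instead of 0. Low counts limit Chit1 and Tfec, which were not tested.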
